A study of Homo sapiens with 6 samples.

Results

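The genes described here encode the protein subunits of the spliceosomal snRNPs and a few factors that work directly on them. Members were taken by gene symbol (the SNRP, SNRNP, SF3A, SF3B, PRPF, LSM1 to LSM8 and U2AF families, with XAB2, DDX39B, EFTUD2, CDC5L, AQR and BUD31 named singly). The rule found 57 members among the 56305 genes counted, and left out 70 pseudogene rows of the same families.

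The study asked how a degrader of METTL3, the catalytic subunit of the enzyme that writes N6-methyladenosine on mRNA, changes gene expression in acute myeloid leukaemia. MOLM13, an established human leukaemia line that the labels give with an FLT3 internal tandem duplication (FLT3-ITD) and a t(9;11) translocation, was treated for 24 h with DMSO, the solvent, or with ZW27941 at 1 μM. ZW27941 is a PROTAC, a molecule that brings its target to a ubiquitin ligase for destruction. RNA was sequenced from 3 DMSO libraries and 3 ZW27941 libraries of this 1 line. The labels do not say whether the libraries came from separate cultures, so the p-values measure only the spread between these samples, which may be technical.

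The spliceosome removes introns from pre-mRNA. It is built from small nuclear RNAs, each held in a particle (snRNP) with proteins: the U1 snRNP recognises the start of the intron, the U2 snRNP with the U2AF heterodimer recognises the branch site and the intron's end, and the U4/U6.U5 tri-snRNP then joins and is remodelled into the active enzyme. A ring of Sm proteins sits on most of these RNAs, whereas U6 carries a related ring of LSm proteins. A separate minor spliceosome, with U11 and U12 in place of U1 and U2, removes a rare class of introns, and SF3B1 and U2AF1 are known as genes mutated in myeloid disease.

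Many promoters of these genes held a short sequence that the choice by symbol did not use. Of the 57 members, 48 had an entry in the RefSeq promoter table (GRCh38.p14, 300 bases, from 250 before to 50 after the start used there). LSM1, LSM6, SF3B3, SNRNP35, SNRPD1, PRPF3, PRPF39 and PRPF4B were among those with no entry. That start can lie inside the gene. For PRPF40B the 250 bases before it were chr12:49623311-49623560, where the gene begins at 49622646. For SNRPE they were chr1:203861597-203861846, where the gene begins at 203861599. The motif CCGGAAG, the core bound by ETS family factors, was searched on both strands and was found in 24 of these 48 windows, 50.0%. It was found in 2913 of 27305 windows of the whole table (10.7%), and in 1970 of the 10748 windows of genes tested here (18.3%). The motif itself holds a C followed by a G. The members' windows had a median of 25 such pairs, against 14 over the whole table. The part of these pairs in the motif's share was not tested. The motif was present in 4 of the 9 matched members that rose on ZW27941 and in 5 of the 10 that fell, SNRPE among the latter. The SP1 box GGGCGG was in 64.6% of the members' windows against 66.9% of those of tested genes, and CCAAT was in 41.7% against 36.5%. TATAAA was in 2 of the members' windows (4.17%, against 6.10% of those of tested genes). The 3 sequences shown are those of XAB2 and DDX39B, the members with the lowest p-values among those that fell and rose, and of SF3A1, the U2 subunit that fell. Each runs 5′ to 3′ on the gene's own strand over the 250 bases before its start, with the ETS motif, or its reverse complement in XAB2, in capitals. All of them lie on the minus strand, XAB2 at chr19:7629546-7629795, DDX39B at chr6:31542004-31542253 and SF3A1 at chr22:30356895-30357144. These 3 all hold the motif, whereas the windows of SNRNP25, CDC5L and LSM2, members with lower p-values than SF3A1, did not.
XAB2: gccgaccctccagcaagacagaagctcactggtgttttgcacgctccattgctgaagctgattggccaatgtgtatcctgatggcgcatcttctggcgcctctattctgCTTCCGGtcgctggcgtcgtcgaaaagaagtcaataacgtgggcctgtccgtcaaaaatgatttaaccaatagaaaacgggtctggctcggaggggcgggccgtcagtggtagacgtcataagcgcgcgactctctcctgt
DDX39B: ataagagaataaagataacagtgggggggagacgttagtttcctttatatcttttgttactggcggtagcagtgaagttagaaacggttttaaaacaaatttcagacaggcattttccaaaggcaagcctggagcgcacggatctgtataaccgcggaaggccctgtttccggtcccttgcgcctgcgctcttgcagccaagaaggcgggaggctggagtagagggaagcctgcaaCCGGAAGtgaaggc
SF3A1: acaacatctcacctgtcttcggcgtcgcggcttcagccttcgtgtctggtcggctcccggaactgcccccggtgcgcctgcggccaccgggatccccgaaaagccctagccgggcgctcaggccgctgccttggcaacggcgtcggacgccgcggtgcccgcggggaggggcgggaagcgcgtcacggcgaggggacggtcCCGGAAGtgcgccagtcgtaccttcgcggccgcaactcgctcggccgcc

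Libraries held between 143454176 and 178744976 counts on genes, a total above the read number that the labels give, so it is not known what a single count stands for. The members took 0.733% to 0.744% of the counts of a library. Reads that the counting gave to no gene, for any reason, were 37.4% to 39.8% of all tallied. This share includes ambiguous reads (2.69% to 2.8%) and reads aligned to several places. The latter were 3.63% to 4.07%, apart from ZW27941 replicate 3 at 5.25%. Over the members, in ZW27941 replicate 3, 14 of the 16 Sm and LSm members lay above the mean of the other 2 ZW27941 libraries, by a median of 0.081 on the log2 scale, and so did 28 of the other 41 members, by a median of 0.025. DMSO replicate 1 had the same count of 14 of 16 Sm and LSm members above the other controls, by a smaller median of 0.036, and ZW27941 replicate 2 had 2 of 16, with a median of -0.058. Over the 57 members the deviation of ZW27941 replicate 3 had a Spearman correlation of -0.53 with the length of the principal transcript, where the other libraries gave -0.20 to 0.50. The genes shared these libraries, so the correlation is a description. Each library was set against the other 2 of its group, so the deviations within a group in part mirror each other. Neither these counts nor the correlations were computed over all genes, so they are not shown to be particular to the members. Named members whose call changed without ZW27941 replicate 3 are given with and without it, as are SNRPE and PRPF6. Sizes of other named members moved too while their calls stayed. Without it SNRPF went from -0.12 to -0.15 and PRPF19 from -0.11 to -0.15 on the log2 scale. SNRNP25 went from 0.19 to 0.16 and SNRNP70 from 0.099 to 0.072. The part of ZW27941 replicate 3 in these results was not tested. The myeloid identity of the line was visible in the levels of LYZ, CD33 and FLT3, given in CPM, the count of a gene relative to the total of its library. On DMSO their means were 963, 66.4 and 563 CPM. Of 10 myeloid markers, 6 rose on ZW27941 (LYZ by 20.4%, and SPI1, ITGAM, MPO, CEBPA and PTPRC by 5.28% to 7.84%) and 4 did not pass, where 16.3% of all genes tested were higher. The sum of the 10 was 3071 to 3134 CPM on DMSO and 3349 to 3424 CPM on ZW27941. Of 13 markers of other cell types, HBB and HBA1 were at 0 in every library, and CD3E, MS4A1, EPCAM and ALB did not exceed a group mean of 0.0287 CPM. The 13 markers summed to 276 to 286 CPM on DMSO and 343 to 351 CPM on ZW27941. Most of it was PECAM1, entered in the list as an endothelial marker, which rose from 259 to 327 CPM, while KRT18 fell from 12.7 to 10.2 CPM. Of the 6 markers tested, no other passed. Whether the PECAM1 reads came from the line itself was not tested, so the summed rise does not show another cell type. The part of either list in the members' changes was not tested. The transcript of METTL3 had 120.2, 122 and 122 CPM on DMSO and 119, 121 and 128 CPM on ZW27941 (adjusted p 0.765), and since the degrader acts on the protein, this does not check the labels.

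The snRNP protein genes moved in both directions and by small amounts. In bulk libraries such as these, fewer cells of a kind and less RNA per cell cannot be told apart. All 57 passed the filter on low counts, and at an adjusted p of 0.05 in edgeR's quasi-likelihood test 10 were higher and 11 lower on ZW27941 (17.5% and 19.3%). Of the 20399 genes tested, 16.3% were higher and 13.8% lower, or 30.1% in either direction against 36.8% of the members. In 27 members (47.4%) all 3 libraries of one group lay above all 3 of the other, against 41.6% of all genes. ZW27941 was above in 16 of them and below in 11, where the shares over all genes were 21.7% and 19.9%. The members' log2 fold changes ran from -0.26 to 0.20 with a median of 0.0023, beside a median of -0.0019 over all genes tested. Their median size without regard to sign was 0.055 against 0.12 over all genes. The members were also measured more precisely, with a median standard error of 0.027 against 0.060 on the log2 scale, and they were expressed at higher levels (a median log2 CPM of 6.57 against 2.82). Summed over the 57 members, the level was 7381 ± 7.38 CPM on DMSO and 7393 ± 53.4 CPM on ZW27941 (SD, n = 3), so the sum moved by less than the spread of the treated libraries. Without ZW27941 replicate 3, 12 members were higher and 13 lower: AQR and PRPF4B were then also called higher and SNRNP27, SNRPB and SNRPC lower, and PRPF8 was no longer called. Scaled by the upper quartile of counts, 10 members were higher and 15 lower, and over all genes 2644 were higher and 3643 lower in place of 3333 and 2816.

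**Figure D1:**
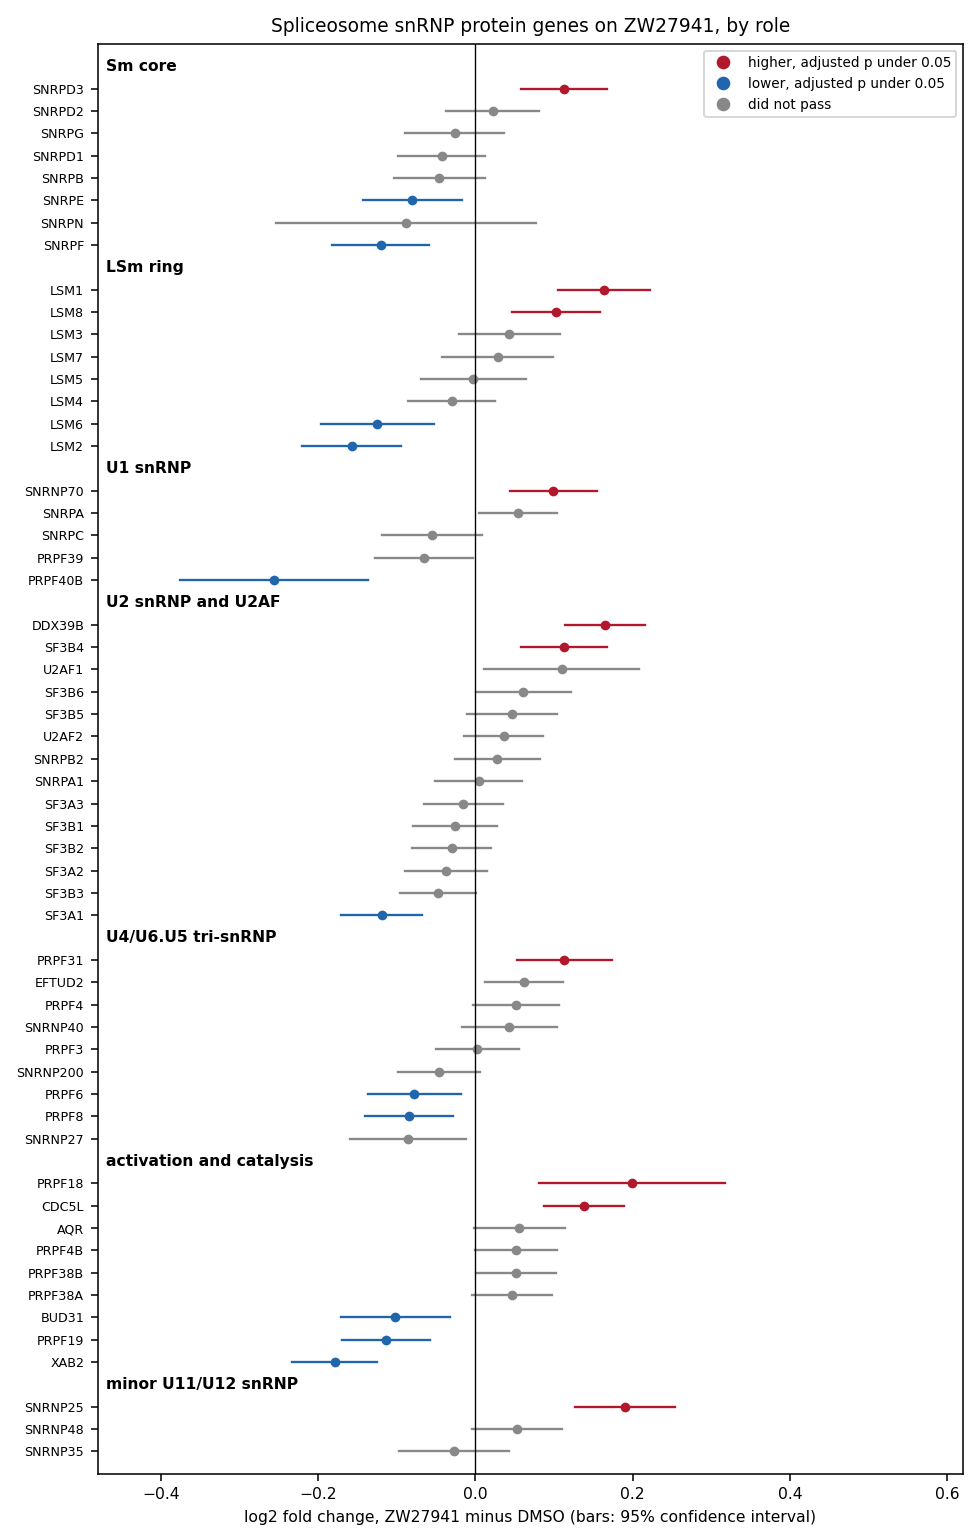
Log2 fold change of 56 of the 57 members (horizontal axis, ZW27941 minus DMSO, 3 libraries each) by role in the spliceosome, with 95% confidence intervals as bars, red and blue for members higher and lower at an adjusted p under 0.05 and grey for the others. Members past the threshold stand on both sides of 0 in every role but the minor snRNP, and all values lie between -0.26 (PRPF40B) and 0.20 (PRPF18).

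In the Sm core, the ring shared by most of the snRNPs, SNRPD3 rose and SNRPF and SNRPE fell, and the other 5 members did not pass the test. SNRPD3, which encodes SmD3, stood at 111, 108 and 109 CPM in the DMSO libraries and 118, 115 and 121 CPM in the ZW27941 libraries. All treated libraries were above all controls. Its mean went from 109 ± 1.98 to 118 ± 3.18 CPM (SD, n = 3), a log2 fold change of 0.11 ± 0.026 (SE) with an adjusted p of 0.00247. By GENCODE v29, 24.6% of its exonic bases are shared with GUCD1 and GGT1. SNRPF, which encodes SmF, went the other way, from 89.2, 86.4 and 88.7 CPM on DMSO to 81.6, 77.3 and 84.2 CPM on ZW27941. Here the treated libraries were all below the controls, and the log2 fold change was -0.12 ± 0.029 (adjusted p 0.00331). SNRPE, for SmE, had 130.5, 126 and 128 CPM on DMSO and 119, 116 and 128 CPM on ZW27941. The groups overlapped, since ZW27941 replicate 3 reached the range of the controls. Its log2 fold change was -0.080 ± 0.030 with an adjusted p of 0.0493, and the call was lost in 5 of 6 fits that each left out a library, all but the one without ZW27941 replicate 3, where the log2 fold change was -0.12 (adjusted p 0.000292). Without ZW27941 replicate 2 it was -0.052 (adjusted p 0.277). SNRPB, which encodes SmB and SmB′, had 114, 115 and 112 CPM on DMSO and 108, 107 and 115 CPM on ZW27941. Again only ZW27941 replicate 3 reached the controls. The log2 fold change of SNRPB was -0.046 (95% interval -0.10 to 0.012, adjusted p 0.234), and without that library it was -0.080 (adjusted p 0.0144). SNRPN, a paralog of SNRPB known from neurons, had 3.81, 3.34 and 3.25 CPM on DMSO and 3.18, 3.36 and 3.24 CPM on ZW27941. These low and overlapping values gave a log2 fold change of -0.088 with an interval of -0.25 to 0.077. In the same annotation, 33.6% of its exonic bases also belong to other genes, SNURF among them. SNRPD1, SNRPG and SNRPD2 had log2 fold changes of -0.043, -0.026 and 0.022. The summed level of the 8 Sm genes was 829, 813 and 813 CPM on DMSO and 802, 783 and 841 CPM on ZW27941. It was lower than every control in 2 treated libraries and higher than every control in replicate 3.

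The LSm proteins form a nuclear ring with LSM8, which holds U6 RNA, and a cytoplasmic ring with LSM1, which takes part in mRNA decay. The other LSm proteins belong to both. LSM1 and LSM8 rose, LSM2 and LSM6 fell, and LSM3, LSM4, LSM5 and LSM7 did not pass. LSM1 had 36.2, 37.0 and 37.0 CPM on DMSO and 41.1, 40.9 and 41.4 CPM on ZW27941, so the libraries of each group lay close together and apart from the other group. It rose from 36.7 ± 0.493 to 41.1 ± 0.236 CPM (SD, n = 3), with a log2 fold change of 0.16 ± 0.028 and an adjusted p of 0.000118. Of its exonic bases, 38.5% are shared with BAG4 and AC084024.3 on the other strand. LSM8 (GRCh38.p14, chr7:118184164-118204035) had 84.6, 81.7 and 82.8 CPM on DMSO and 87.0, 91.9 and 88.6 CPM on ZW27941. The treated libraries were all higher, by a log2 fold change of 0.10 ± 0.027 (adjusted p 0.00594), but without ZW27941 replicate 2 the adjusted p was 0.0606. LSM2 (chr6:31797396-31806966) had 59.1, 55.6 and 57.1 CPM on DMSO and 50.0, 50.8 and 53.2 CPM on ZW27941. It was lower in every treated library and fell by 10.3%, with a log2 fold change of -0.16 ± 0.030 and an adjusted p of 0.000403. LSM6 stood at 28.0, 26.3 and 26.6 CPM and then 24.2, 24.3 and 25.7 CPM, also with all treated libraries below the controls. The log2 fold change of LSM6 was -0.12 ± 0.035 (adjusted p 0.00838), and without DMSO replicate 1 the adjusted p was 0.0641. The ratio of LSM8 to LSM1, the subunits that tell the rings apart, was 2.26 ± 0.068 on DMSO and 2.17 ± 0.070 on ZW27941, with overlapping libraries. The 4 members that did not pass had log2 fold changes between -0.030 (LSM4) and 0.043 (LSM3).

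Among the U1 proteins, SNRNP70, the U1-70K subunit that contacts U1 RNA and SR proteins, rose, and PRPF40B fell. SNRNP70 had 264, 265 and 257 CPM on DMSO and 280.4, 271 and 290.0 CPM on ZW27941. Every treated library was higher, and the mean went from 262 ± 4.35 to 280.5 ± 9.50 CPM (SD, n = 3). Its log2 fold change was 0.099 ± 0.027 (adjusted p 0.00680), and without DMSO replicate 3 the adjusted p was 0.0521. PRPF40B, a homolog of a yeast U1 protein, was weakly expressed, with 8.84, 8.98 and 8.37 CPM on DMSO and 7.72, 7.32 and 6.88 CPM on ZW27941. No libraries overlapped, and the fall by 16.2% (log2 fold change -0.26 ± 0.058, adjusted p 0.00174) had the largest size of the 57 members. By GENCODE v29, 48.7% of its exonic bases are shared with FMNL3 and FAM186B on the other strand. The strand setting of the counting is not given in the sources used here. HTSeq kept ambiguous reads in a tally of their own, 2.69% to 2.8% of a library. What the overlap did to the count of PRPF40B was not tested. The U1 subunits SNRPA and SNRPC and the U1-associated PRPF39 had log2 fold changes of 0.054, -0.055 and -0.066 with adjusted p-values of 0.0963, 0.186 and 0.105.

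Of the 14 genes for the U2 snRNP and for recognition of the intron's end, DDX39B and SF3B4 rose and SF3A1 fell. DDX39B (UAP56, chr6:31530226-31542003), an RNA helicase that helps U2 onto the branch site and takes part in mRNA export, had 342, 347 and 335 CPM on DMSO and 377, 387 and 384 CPM on ZW27941. The treated libraries were all above the controls. The rise of 12.1%, from 341 ± 6.39 to 383 ± 5.01 CPM (SD, n = 3), corresponded to a log2 fold change of 0.16 ± 0.024 with an adjusted p of 2.50e-05, the lowest of the members that rose. In its case 30.8% of exonic bases are shared, on the same strand too, with the readthrough gene ATP6V1G2-DDX39B among others. SF3B4, a subunit of the SF3b complex that contacts RNA near the branch site, had 97.4, 98.5 and 96.0 CPM on DMSO and 102, 105 and 108 CPM on ZW27941. These groups did not overlap, and the log2 fold change was 0.11 ± 0.026 (adjusted p 0.00234). SF3A1 (chr22:30331988-30356894), of the SF3a complex, had 157, 160.2 and 156 CPM on DMSO and 146, 148 and 142 CPM on ZW27941. It was lower in each treated library, with a log2 fold change of -0.12 ± 0.025 and an adjusted p of 0.000816. SF3B1, the subunit that clasps the branch helix and the most often mutated of these genes in myeloid disease, had 609.6, 607 and 627 CPM on DMSO and 607, 616 and 589 CPM on ZW27941. The groups overlapped, and its log2 fold change of -0.026 (adjusted p 0.494) had a 95% interval of -0.079 to 0.027. U2AF1, the small U2AF subunit, which reads the last bases of the intron, had 11.8, 11.3 and 12.1 CPM on DMSO and 13.1, 11.8 and 12.9 CPM on ZW27941. ZW27941 replicate 2 lay within the range of the controls, and the log2 fold change was 0.11 (interval 0.011 to 0.21, adjusted p 0.0891). Without that library it was 0.15 (adjusted p 0.0310). U2AF1L5 is a near-identical copy of U2AF1 that took 4.54 ± 0.832 CPM on DMSO and 4.53 ± 0.308 CPM on ZW27941. With its counts added, an alternative chosen after the data had been seen, the log2 fold change was 0.079 (adjusted p 0.147), and the level of U2AF1 itself is uncertain. The large subunit U2AF2 had 274 ± 4.17 and 281 ± 3.52 CPM (log2 fold change 0.036, interval -0.014 to 0.086). The remaining 8 U2 genes had log2 fold changes between -0.048 (SF3B3) and 0.061 (SF3B6).

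In the U4/U6.U5 tri-snRNP, PRPF31 rose, and PRPF8 and PRPF6 fell, both with calls that were lost when single libraries were left out. PRPF31, which binds the U4 RNA and bridges the U4/U6 and U5 parts, had 61.8, 61.9 and 60.2 CPM on DMSO and 65.8, 64.1 and 68.9 CPM on ZW27941. Its treated libraries were all higher, with a log2 fold change of 0.11 ± 0.029 (adjusted p 0.00462). It shares 32.0% of its exonic bases, in part with TFPT on the other strand. PRPF8, the large U5 protein that scaffolds the catalytic centre, had 480.1, 486 and 482 CPM on DMSO and 474, 453 and 439 CPM on ZW27941. No libraries overlapped, although the treated ones were spread more widely, with a mean of 455 ± 17.9 CPM against 483 ± 2.98 CPM on DMSO (SD, n = 3). The log2 fold change of PRPF8 was -0.084 ± 0.027 with an adjusted p of 0.0217. The call was lost in 5 of 6 fits that each left out a library, with adjusted p-values of 0.0516 to 0.0875, and was kept without ZW27941 replicate 1. Without ZW27941 replicate 3 its log2 fold change was -0.061 (adjusted p 0.0530). PRPF6, which links U5 to U4/U6, had 158, 163 and 165 CPM on DMSO and 149, 151 and 161 CPM on ZW27941. ZW27941 replicate 3 fell within the controls. The log2 fold change of PRPF6 was -0.077 ± 0.029 (adjusted p 0.0452), and the call was lost in the fits without DMSO replicate 2 or 3 and without ZW27941 replicate 1 or 2 (adjusted p 0.132 to 0.207). Without ZW27941 replicate 3 it was -0.11 (adjusted p 0.000581). EFTUD2, the GTPase of U5, had 158, 157 and 159 CPM on DMSO and 164, 163 and 168 CPM on ZW27941. The treated libraries were all higher, yet the log2 fold change of 0.062 (interval 0.012 to 0.11) had an adjusted p of 0.0548. It passed in DESeq2 (adjusted p 0.0405) and when scaled by library size only (0.0250). SNRNP200 (Brr2), the helicase that unwinds U4 from U6, had 404, 418 and 417 CPM and then 407, 401 and 391 CPM. The groups overlapped, and the log2 fold change of SNRNP200 was -0.047 (interval -0.099 to 0.0056, adjusted p 0.176), or -0.070 (adjusted p 0.0407) when scaled by the upper quartile. SNRNP27, PRPF4, SNRNP40 and PRPF3 did not pass, with log2 fold changes of -0.086, 0.052, 0.043 and 0.0023.

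Among the 9 factors of activation and catalysis, XAB2, PRPF19 and BUD31 fell, and CDC5L and PRPF18 rose. XAB2 (SYF1, chr19:7619525-7629545), a protein of the active spliceosome that also binds the repair factor XPA, had 98.3, 104 and 101 CPM on DMSO and 89.8, 88.1 and 89.8 CPM on ZW27941. The treated libraries were nearly equal and all below the controls. It fell by 11.7%, from 101 ± 2.71 to 89.2 ± 0.950 CPM (SD, n = 3), with a log2 fold change of -0.18 ± 0.026 and an adjusted p of 2.01e-05, the lowest of all 57 members. PRPF19 and CDC5L are both core subunits of the PRP19 complex, which joins when the spliceosome is activated. PRPF19, its ubiquitin ligase, had 148, 149.9 and 147 CPM on DMSO and 135, 133 and 142 CPM on ZW27941. CDC5L had 115, 111 and 115 CPM on DMSO and 126, 126 and 123 CPM on ZW27941. So PRPF19 was lower and CDC5L higher in every treated library, with log2 fold changes of -0.11 ± 0.027 (adjusted p 0.00257) and 0.14 ± 0.025 (adjusted p 0.000192). PRPF18, which acts in the second step of splicing, was weakly expressed, with 7.88, 7.72 and 8.22 CPM on DMSO and 9.78, 8.57 and 8.96 CPM on ZW27941. Its treated libraries were all higher, led by replicate 1, and the log2 fold change was 0.20 ± 0.057 (adjusted p 0.0106). The adjusted p was 0.0568 without DMSO replicate 2 and 0.0796 without ZW27941 replicate 1, and 48.5% of the exonic bases of PRPF18 are shared with other annotated genes. BUD31, a small protein of the active spliceosome, was named after its values were seen. It had 51.8, 53.0 and 53.6 CPM on DMSO and 46.2, 51.3 and 50.3 CPM on ZW27941, all treated libraries being lower. Its log2 fold change was -0.10 ± 0.034 (adjusted p 0.0244). The adjusted p of BUD31 rose to between 0.0736 and 0.221 without DMSO replicate 2, DMSO replicate 3 or ZW27941 replicate 1, and without the last of these the log2 fold change was -0.056. In BUD31, 46.7% of exonic bases are shared with PTCD1 and PDAP1. PRPF38A, PRPF38B, PRPF4B and the helicase AQR had log2 fold changes between 0.046 and 0.056, with adjusted p-values from 0.118 to 0.169.

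For the minor spliceosome, SNRNP25, a protein of the U11/U12 particle, had 51.2, 52.8 and 49.9 CPM on DMSO and 57.2, 57.5 and 60.9 CPM on ZW27941. All treated libraries were above the controls. It rose by 14.1%, from 51.3 ± 1.49 to 58.5 ± 2.07 CPM (SD, n = 3), with a log2 fold change of 0.19 ± 0.031 and an adjusted p of 5.88e-05. SNRNP48 and SNRNP35 of the same particle did not pass, with log2 fold changes of 0.053 (interval -0.0037 to 0.11) and -0.027 (interval -0.097 to 0.043).

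**Figure D2:**
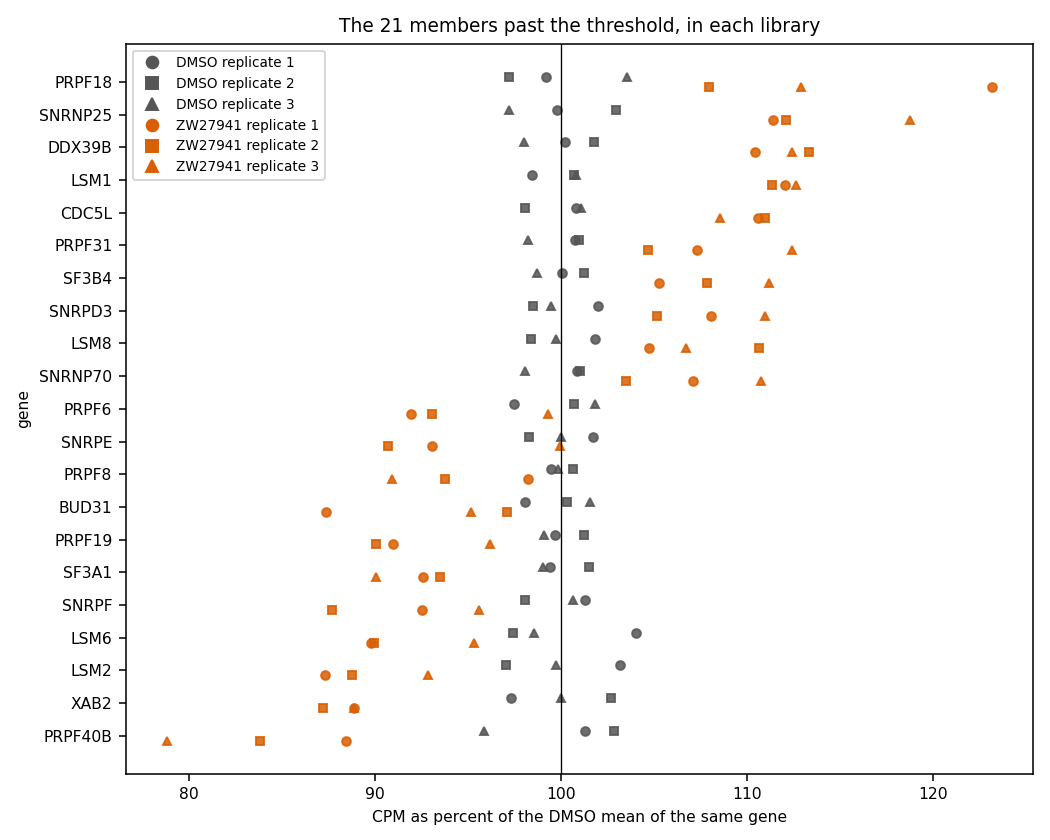
Level of the 21 members past an adjusted p of 0.05 in each of the 6 libraries, as CPM in percent of that gene's DMSO mean (horizontal axis), with grey for DMSO, orange for ZW27941 and the marker's shape for the replicate. In 19 members the orange and grey points do not overlap, and in SNRPE and PRPF6 ZW27941 replicate 3 lies among the grey points.

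Of the 21 members past the threshold, 13 kept their call in every alternative that was run, and 8 lost it in at least 1 fit that left out a library. The 36 members that did not pass had log2 fold changes between -0.088 and 0.11, and their 95% intervals lay within -0.25 and 0.21. In 8 of them the groups did not overlap, above the controls in PRPF38A, PRPF38B, SNRNP48, SNRPA, SF3B6 and EFTUD2 and below them in SF3B3 and SNRNP27. The treated libraries were spread more widely than the controls in 41 of the 57 members, with a median coefficient of variation of 2.69% against 1.78%. This share was not computed over all genes, so it is not shown to be particular to the members. Over the genes of the files, chi-square per degree of freedom was 4.73 to 5.66 between DMSO libraries. Between ZW27941 replicates 1 and 2 it was 5.28, and with ZW27941 replicate 3 it was 12.9 and 8.78. The members had between 521 (SNRPN) and 94529 (SF3B1) counts per library on average.

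Per length, the members covered a wide range of levels. With CPM divided by the length in kilobases of the longest annotated transcript, the Sm genes on DMSO ran from 238 ± 4.01 for SNRPD2 down to 1.79 ± 0.155 for SNRPN. SNRPE followed SNRPD2 at 133, SNRPB stood at 98.7, SNRPG, SNRPF and SNRPD3 at 64.2, 63.4 and 62.0, and SNRPD1 at 18.6. The ranges of the neighbours SNRPG, SNRPF and SNRPD3 over the DMSO libraries overlapped, although SNRPG and SNRPF stood above SNRPD3 within each DMSO library. Among the LSm genes LSM7 was highest at 173, LSM2 and LSM4 had 65.4 and 56.3, and LSM1, LSM8, LSM5, LSM3 and LSM6 had 23.4, 20.6, 18.7, 13.6 and 11.9. These orders depended on the transcript chosen. With the principal transcript in place of the longest, chosen after the data had been seen, LSM8 had 63.6, SNRPG 112, LSM1 32.0 and LSM7 233, all in CPM per kilobase on DMSO.

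**Figure D3:**
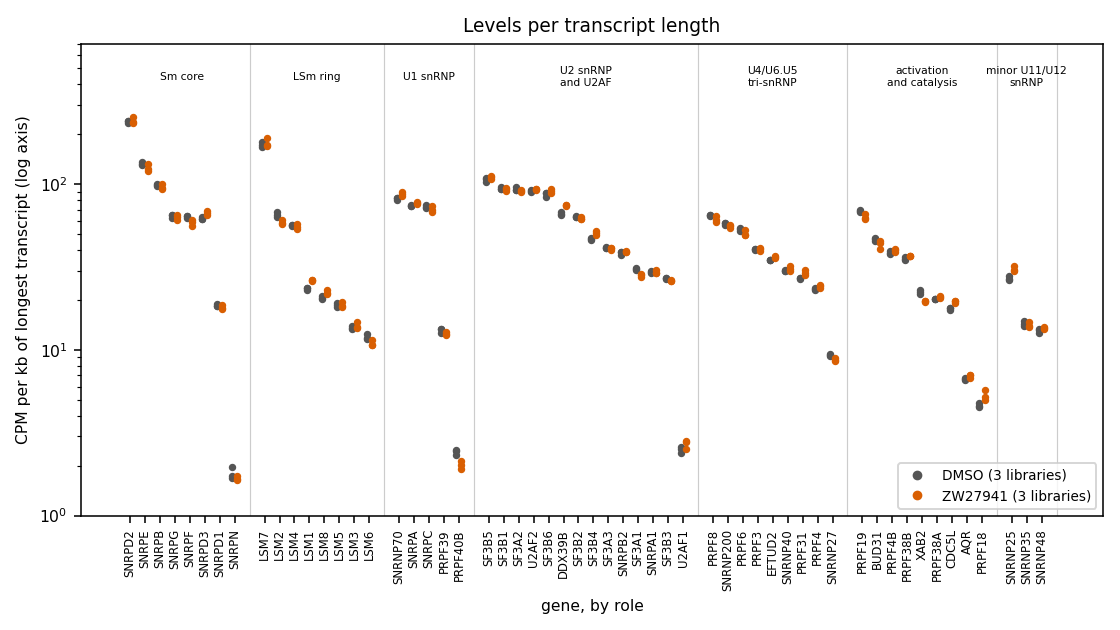
Level of 56 of the 57 members in CPM per kilobase of its longest transcript (vertical axis, logarithmic) in the 3 DMSO (grey) and 3 ZW27941 (orange) libraries, ordered within each role by level. The levels of members differ far more than the treatments do, from 238 for SNRPD2 to 1.79 for SNRPN on DMSO.

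Other genes of the splicing pathway also moved in both directions. Over all genes tested, 30.1% passed in either direction. Of 56 further spliceosome proteins, all tested, 11 rose and 11 fell (39.3% in all), with a median log2 fold change of 0.010. The scaffold protein SRRM2 rose from 1011 ± 18.8 to 1139 ± 32.4 CPM (SD, n = 3, log2 fold change 0.17, adjusted p 4.22e-05), and ZMAT2, a tri-snRNP protein, from 78.2 ± 1.07 to 87.9 ± 2.36 CPM (0.17, adjusted p 4.83e-05). Among 16 genes of the SMN complex and of Sm ring assembly, which load the Sm proteins onto the RNAs, 3 rose and 5 fell (50% in all), with a median of -0.0043. Among those that fell was SMN1 (log2 fold change -0.22, adjusted p 0.00345). Its near-identical copy SMN2, counted in a row of its own, did not pass (0.028, adjusted p 0.773). How well the reads of these copies were told apart was not tested. GEMIN6 had 16.8, 15.9 and 16.0 CPM on DMSO and 20.5, 21.2 and 22.3 CPM on ZW27941. It was higher in every treated library, by a log2 fold change of 0.39 with an adjusted p of 9.91e-08, more than any snRNP protein member. STRAP (unrip) of the same complex had 102, 99.4 and 99.6 CPM on DMSO and 85.2, 87.0 and 88.2 CPM on ZW27941, and fell with a log2 fold change of -0.21 (adjusted p 1.97e-06). Of the SR proteins and hnRNPs, which choose splice sites, 32 of 37 were tested, 8 rose and 6 fell (43.8% of those tested), with a median of 0.048. HNRNPF rose from 370.3 ± 0.803 to 442 ± 6.41 CPM (0.25, adjusted p 6.27e-08), and HNRNPLL fell from 62.5 ± 0.401 to 53.1 ± 0.551 CPM (-0.23, adjusted p 6.67e-07).

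**Figure D4:**
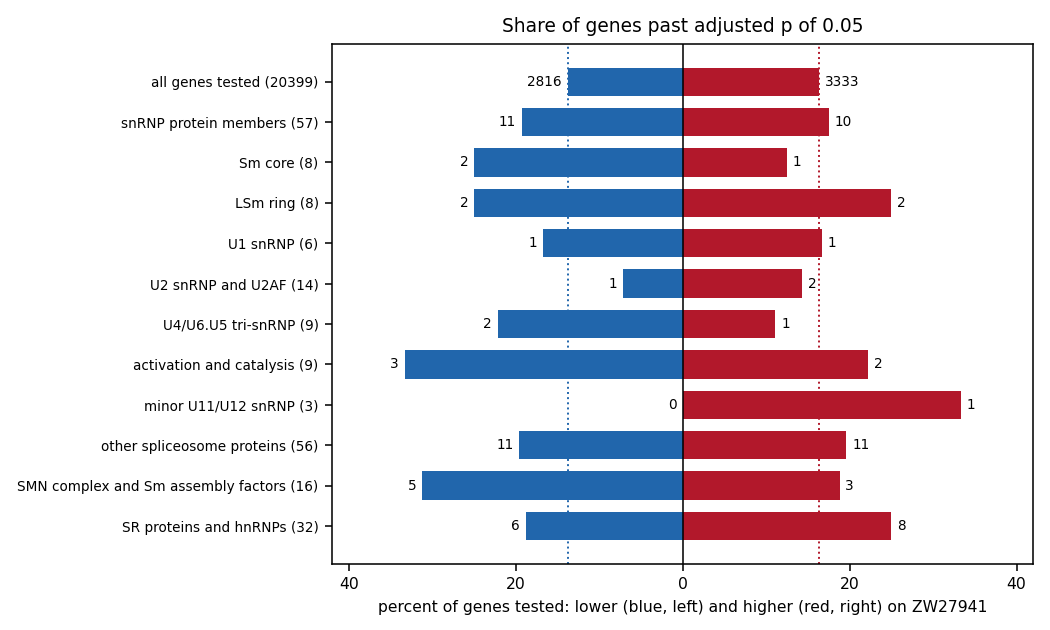
Percent of the genes tested in each list that were lower (blue, left) or higher (red, right) on ZW27941 at an adjusted p under 0.05, with the number of genes tested in brackets and the count at each bar; dotted lines mark the shares over all 20399 genes. The 57 members had 11 lower and 10 higher, beside 13.8% and 16.3% over all genes.

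Near-copies of the members were counted as rows of their own. Of the 70 pseudogene rows of the members, which include 20 of SNRPG, 18 of SNRPC and 9 of SNRPE, 9 passed the filter, and 1 of them, SNRPGP14, was lower (log2 fold change -0.43, adjusted p 0.0463). The highest was SNRPEP4 at 4.84 CPM on DMSO. Adding the pseudogene counts to the parent genes left 10 members higher and 11 lower, and no call was lost. Of 37 rows for the spliceosomal RNAs themselves, 8 were tested and 0 passed edgeR's test, with 1 at an unadjusted p under 0.05. DESeq2 called 0 of them and gave 3 no adjusted p. Few reads were counted on these rows. RNU1-1, RNU2-1, RNU4-1 and RNU6-1 had DMSO means of 0.0022, 0, 0.0089 and 0 CPM and were not tested. Among the tested rows, RNVU1-1 averaged 12.3 counts per library and RNU6ATAC 230. The rows therefore do not show whether the levels of the spliceosomal RNAs changed. RNU6ATAC of the minor spliceosome had 1.38 ± 0.044 CPM on DMSO and 1.56 ± 0.21 CPM on ZW27941, and RNVU1-4, a variant U1 gene, had 1.16 ± 0.15 and 0.936 ± 0.019 CPM.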

How the data were processed

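Total RNA of 3 DMSO and 3 ZW27941 libraries was sequenced as paired reads on an Illumina instrument. The deposited values are the authors' raw HTSeq counts for each gene, neither normalized nor filtered. The submitters' processing notes name HISAT2, SAMtools 1.19.2, HTSeq 2.0.3 and hg38. The annotation and the strand setting are not given in the sources used here. HTSeq's tallies of reads given to no gene were left out of library sizes and tests.

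Tests were run with edgeR 4.0.16 (R 4.3.3), using filterByExpr, TMM factors (0.994 to 1.01), the quasi-likelihood test over all 20399 genes that passed and Benjamini-Hochberg adjustment over these genes at a threshold of 0.05. CPM were computed with the TMM factors. The common biological coefficient of variation was 3.11%. Fold changes are ZW27941 over DMSO. The code was tested on simulated data. With 3 libraries against 3, an exact permutation test of a single gene cannot go below 0.10, so none was used.

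Alternatives were other scalings (RLE, upper quartile, library size only), DESeq2 1.42.0, other filters on low counts, a replicate block, pseudogene counts added and each library left out. Transcript lengths and shared exonic bases came from GENCODE v29, positions and promoters from RefSeq (GRCh38.p14). The members, the lists and the alternatives were chosen with earlier results of these data known. Named were the 4 members with the lowest p past the threshold in each role, 8 members whatever their values (SF3B1, U2AF1, PRPF8, SNRNP200, SNRNP70, SNRPB, SNRPN and EFTUD2) and the top 2 of each other list. Replicate libraries differed from each other by more than sampling noise. The values of 1 member are not reported here, although it is included in the counts.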

Additional observations from a re-analysis of the deposited data

How the results depend on the processing

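No member past the threshold changed direction under any alternative. RLE scaling, both other filters on low counts, added pseudogene counts and added U2AF1L5 counts left 10 members higher and 11 lower, and DESeq2 gave 11 and 11. Scaling by library size only gave 12 and 9, without PRPF6 and SNRPE and with EFTUD2 and SNRPA. Upper quartile scaling gave 10 and 15, adding PRPF39, SF3B3, SNRNP200 and SNRNP27, and the members' median log2 fold change was then -0.021. Under it 7 other spliceosome proteins and 5 SR proteins and hnRNPs were higher, and with no filter 7 other spliceosome proteins were lower. With single libraries left out, 9 to 12 members were higher and 7 (without DMSO replicate 3) to 13 (without ZW27941 replicate 3) lower, PRPF39 was called lower without DMSO replicate 2, and the median ran from -0.018 to 0.019. These fits gave 7 to 11 other spliceosome proteins higher and 6 to 13 lower, 3 to 6 SMN and Sm assembly genes lower, and 3 to 7 SR proteins and hnRNPs lower. Such fits have fewer samples, and whether this or something else lay behind the differences was not tested.

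Replicate numbers are shared between the groups, but libraries with the same number did not deviate together (correlations over genes of -0.0099, 0.0031 and 0.043), and the closest pair was DMSO replicate 2 with ZW27941 replicate 1 (0.051). With a replicate block, 3243 genes were higher and 2767 lower, against 3333 and 2816 without it, and 10 members were higher and 11 lower, with no call lost.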
